A study of Mus musculus with 12 samples.

Results

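The 8 myosin light chain genes Myl1, Myl2, Myl3, Myl4, Myl6, Myl7, Myl9 and Mylpf were taken by symbol from a table of 20368 mouse genes and followed in 12 RNA-seq libraries of embryonic heart of strain CD1. Hearts were taken at embryonic day 11.5 (E11.5) or 12.5 (E12.5). They were Mesp1Cre;Hira+/fl, called control here, or Mesp1Cre;Hira-/fl, called mutant, with 3 libraries in each of the 4 groups. HIRA is a chaperone that places the histone variant H3.3 into chromatin, and the study asked which genes of the developing heart change when it is lost. Both genotypes carried the Cre driver and 1 floxed Hira allele, so recombined cells of the controls were heterozygous. The other allele was a constitutive null in the mutants, so their cells outside the Mesp1 lineage were heterozygous too. Mesp1Cre acts in early cardiac mesoderm, and cells of other origin in the heart, such as neural crest, keep the floxed allele. The labels do not say whether a library was 1 embryo or a pool, so the p-values measure only the spread between these libraries.

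A muscle myosin has a pair of heavy chains, and each heavy chain carries an essential and a regulatory light chain on its lever arm. The essential chains stiffen the arm and tune the motor, and the regulatory chains are phosphorylated by light chain kinases. Isoforms differ between muscles. In the heart Myl7 (regulatory) and Myl4 (essential) are known as atrial genes, with Myl4 and Myl7 also present in the young ventricle, whereas Myl2 (regulatory) and Myl3 (essential) are known as ventricular genes. Myl1 (essential) and Mylpf (regulatory) are chains of fast skeletal muscle. Myl9 is the regulatory chain of smooth muscle, and Myl6 is the essential chain of smooth muscle and non-muscle cells.

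Total counts ran from 11994148 to 17483982 per library, and the lowest count of any of the 8 genes was 130, of Mylpf. Hira itself had 56.6 to 85.8 CPM over the 12 libraries. CPM here are counts scaled to the library total times its TMM factor, a scaling between libraries. In mutants its level differed by -0.26 on the log2 scale at E11.5 (SE 0.14, adjusted p = 0.607) and by -0.01 at E12.5 (SE 0.12, adjusted p = 0.962). These counts cover the whole gene and not its floxed part alone, so they do not check the genotypes. Reads of Y-linked genes marked 3 of 3 E11.5 control libraries as male, against 1 of 3 in each of the other groups (E11.5 mutant 3, E12.5 control 3 and E12.5 mutant 1). The libraries also differed by gene length. The median deviation of 1023 genes shorter than 1200 bases, minus that of 1458 genes longer than 5000 bases, ran from -0.49 to 0.75 on the log2 scale. It was 0.53 in replicate 3 of the E11.5 controls and 0.75 in replicate 3 of the E11.5 mutants, and from -0.49 to -0.15 in the E12.5 controls. All 8 light chain genes are short, with 590 to 1111 bases in the authors' table, so values below are also given with an offset for gene length where that changed a call. Replicate 3 of the E12.5 controls stood apart from the other two for several light chains, and the genotype values that moved most without it are given both ways.

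In the authors' table on GRCm38 the ventricular genes lie on chromosome 5, 122100951 to 122113472 (Myl2, forward strand) and chromosome 9, 110763646 to 110769804 (Myl3, forward). The atrial genes both lie on chromosome 11, at 5896637 to 5898782 (Myl7, reverse) and 104550663 to 104595753 (Myl4, forward). Myl1 lies on chromosome 1, 66924295 to 66945404 (reverse), Mylpf on chromosome 7, 127211608 to 127214298 (forward), Myl9 on chromosome 2, 156775420 to 156781658 (forward) and Myl6 on chromosome 10, 128490860 to 128493875 (reverse).

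The sequence before each RefSeq start was read from promoter windows on GRCm38.p6, and all 8 genes had 1 or 2 windows. Both RefSeq starts of Myl2 (122092724 and 122093189) lie far before that gene in the authors' table (from 122100951). Of 5 motifs searched on both strands in the 250 bases before the start, the CArG box, the site of serum response factor in muscle genes, stood in 4 of 10 light chain windows (Myl3, Myl6, Myl7 and Myl9) and in 1.47% of 32851 windows of all genes. GAGAGAGA, searched because the study describes such repeats at HIRA-bound regions, stood in the window of Myl4, as 2 overlapping matches, and in 3.26% of all windows. TATAAA was found in windows of Myl1 and Myl2 (12.4% of all windows). CANNTG stood in 7 of 10 light chain windows (66.2%), and the MEF2 site in 0 of 10 (2.92%). The windows of Myl2 do not hold the sequence next to the gene as the authors' table places it. The TATAAA and CANNTG of Myl1 and the CArG box of Myl6 lie inside those genes as that table places them. The stretches of 100 bases that hold the CArG box of an atrial, a ventricular and a smooth muscle chain, and the GA repeat of Myl4, are shown with the match in capitals. They lie at chr11:5898783-5898882 (reverse strand) for Myl7, chr9:110763546-110763645 (forward) for Myl3, chr2:156775264-156775363 (forward) for Myl9 and chr11:104550543-104550642 (forward) for Myl4, each outside the gene as the authors' table places it. The CArG box of Myl7 lies 61 to 52 bases before its RefSeq start, that of Myl3 85 to 76 and that of Myl9 161 to 152, and the repeat of Myl4 lies 106 to 97 bases before.
Myl7: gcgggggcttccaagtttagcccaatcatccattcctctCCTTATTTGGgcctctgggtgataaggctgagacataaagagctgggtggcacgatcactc
Myl3: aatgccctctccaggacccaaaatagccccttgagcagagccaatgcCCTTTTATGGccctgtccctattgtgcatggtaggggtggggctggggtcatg
Myl9: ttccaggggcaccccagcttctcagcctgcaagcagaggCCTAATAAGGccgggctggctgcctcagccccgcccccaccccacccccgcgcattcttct
Myl4: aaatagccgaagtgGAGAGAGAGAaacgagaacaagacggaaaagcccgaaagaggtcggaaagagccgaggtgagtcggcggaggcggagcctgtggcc

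Per unit of gene length (RPKM computed from the recovered counts), Myl2 was the most abundant light chain in all 12 libraries, with 5064 to 7908 RPKM. In the E11.5 controls it was followed by Myl7 (3079 ± 129, SD, n = 3), Myl4 (3035 ± 363) and Myl3 (2200 ± 175 RPKM), and the ranges of Myl7 and Myl4 overlapped. Myl6 (1055 ± 206) and Myl9 (842 ± 42.1 RPKM) came next, with overlapping ranges. Myl1 (166 ± 19.3) and Mylpf (40.8 ± 9.41 RPKM) were the lowest, and each was apart from its neighbours in the order. In the E12.5 controls Myl7 stood at 2015 ± 727 RPKM, now below Myl4 and overlapping Myl3 (2033 ± 103), which in turn overlapped Myl4 (2326 ± 290). In the E12.5 mutants Myl7 (2845 ± 416) and Myl4 (2826 ± 283) again overlapped as the second and the third, both above Myl3 (2326 ± 75.4 RPKM). The plot of levels by library shows that the atrial and ventricular chains differed by a few fold, while both skeletal chains were far below them in every library.

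**Figure D1:**
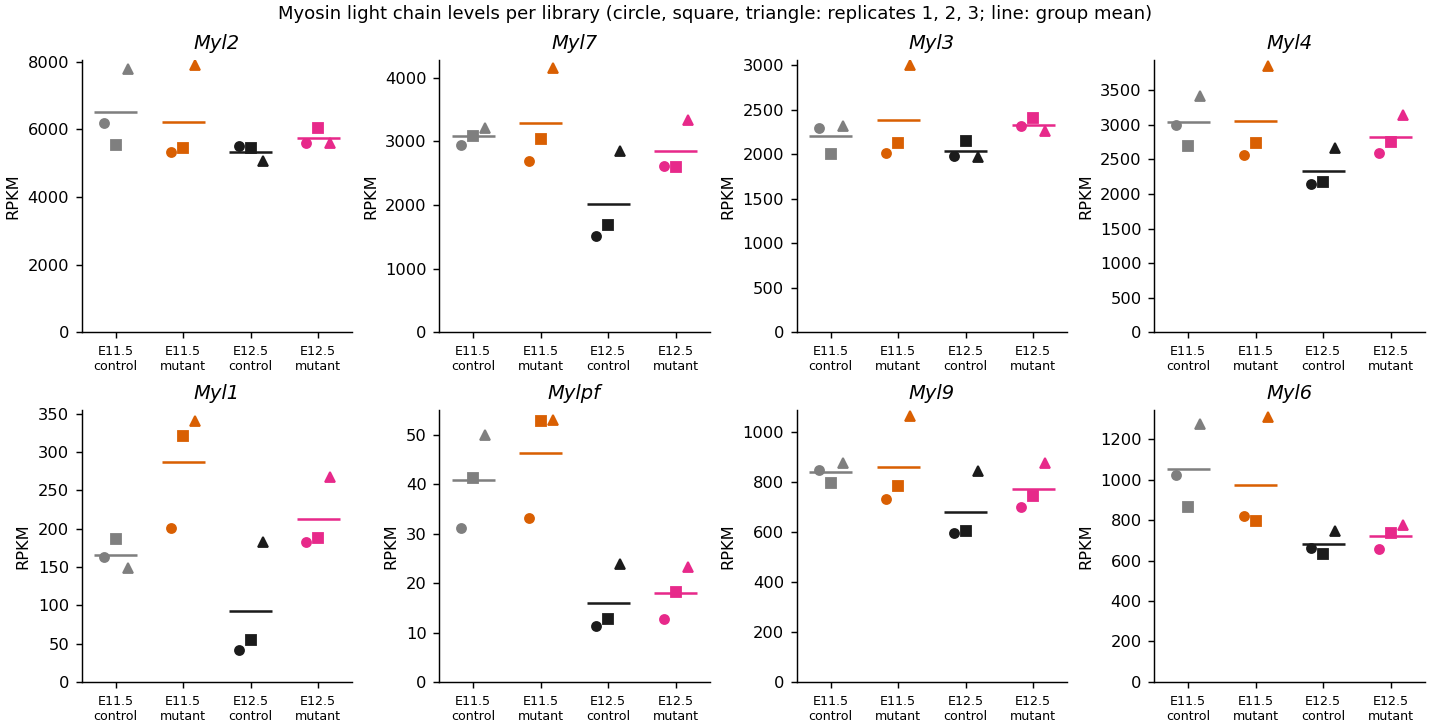
RPKM (linear axes from 0) of the 8 light chain genes in each library of the 4 groups, 1 point per library and a line at the group mean of 3. Myl2 lies between 5064 and 7908 RPKM throughout, and Myl1 and Myl7 of 2 E12.5 controls lie below all other libraries.

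Mutants were compared with controls at each stage and over both stages. A call required a change of 1.5-fold or more and an adjusted p (Benjamini-Hochberg) no higher than 0.05 in edgeR's quasi-likelihood test. None of the 8 light chains was called at E11.5, where 0.115% of all 12197 genes tested were called, nor at E12.5 (2.95% of 12257 genes), nor over both stages with stage in the model (3.22% of 12270 genes). At an unadjusted p under 0.05, 1 light chain passed at E11.5 (Myl1), beside 1242 of all 12197 genes. At E12.5, 4 passed (Myl1, Myl3, Myl4 and Myl7), beside 2621 of 12257 genes. Over both stages 1 passed (Myl1), beside 2380 of 12270 genes. DESeq2 called 1 light chain at E11.5, beside 248 genes. It called 0 at E12.5 and over both stages, beside 435 and 470 genes. The groups of a light chain did not overlap for 1 of 8 at E11.5 (16.3% of all genes) and for 2 of 8 at E12.5 (26.2% of all genes). The median log2 fold change of the 8 was 0.06 at E11.5 and 0.19 at E12.5, beside 0.00 for all genes at both stages. These bulk values cannot tell fewer cells of a type from less RNA per cell.

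Of the atrial chains, Myl7 had 1738, 1823 and 1889 CPM in the E11.5 controls and 1583, 1789 and 2444 CPM in the mutants. The E12.5 controls had 889, 998 and 1680 CPM, and the mutants of that stage 1541, 1533 and 1962 CPM. The groups overlapped at both stages, and at E12.5 only through control replicate 3, which lay above 2 of the 3 mutants. On the log2 scale the mutants lay 0.09 above the controls at E11.5 (SE 0.18, adjusted p = 0.936) and 0.50 above them at E12.5 (SE 0.20, adjusted p = 0.177). Without that control library the E12.5 value was 0.83 and was called (adjusted p = 0.0037).

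Myl4, the atrial and embryonic essential chain, had 2646, 2378 and 3016 CPM in the E11.5 controls and 2269, 2417 and 3398 CPM in the mutants. A day later the controls had 1893, 1919 and 2348 CPM and the mutants 2284, 2432 and 2771 CPM, and control replicate 3 again reached into the mutant range. The log2 difference of Myl4 in mutants came to 0.01 at E11.5 (SE 0.19, adjusted p = 0.995) and to 0.28 at E12.5 (SE 0.10, adjusted p = 0.138), with a 95% interval of 0.06 to 0.50 at the later stage. Without that control library the E12.5 value was 0.39 (adjusted p = 0.0309), below 1.5-fold. The lowest counts of Myl7 and Myl4 in a library were 13551 and 28849.

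Of the ventricular chains, Myl2 had 3919, 3501 and 4936 CPM in the E11.5 controls and 3373, 3454 and 5006 CPM in the mutants. Its E12.5 levels were 3493, 3445 and 3206 CPM in controls against 3538, 3829 and 3542 CPM in mutants. On these TMM-scaled values the groups overlapped at E11.5 and were apart at E12.5, with every mutant above every control by a small margin. For Myl2 the log2 difference came to -0.06 at E11.5 (SE 0.20, adjusted p = 0.958) and to 0.10 at E12.5 (SE 0.07, adjusted p = 0.437), and it changed sign at both stages with the length offset (0.052 and -0.033).

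Myl3, the ventricular essential chain, had 2056, 1794 and 2075 CPM in the E11.5 controls and 1810, 1908 and 2697 CPM in the mutants. Controls of E12.5 had 1779, 1932 and 1765 CPM, against 2081, 2160 and 2025 CPM in their mutant counterparts. The E12.5 groups did not overlap, and mutants lay 0.19 higher on the log2 scale (SE 0.07, 95% interval 0.04 to 0.35, adjusted p = 0.140), beside 0.11 at E11.5 (SE 0.18, adjusted p = 0.916). With the length offset the E12.5 value of Myl3 was 0.085 (adjusted p = 0.520).

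Of the fast skeletal chains, Myl1 had 181, 207 and 165 CPM in the E11.5 controls and 223, 357 and 378 CPM in the mutants. The E12.5 controls had 46.2, 61.1 and 203 CPM, and the E12.5 mutants 202, 209 and 298 CPM. At E11.5 all mutants were above all controls. At E12.5 controls 1 and 2 were the lowest of the 12 libraries, while control 3 lay within the range of the mutants. Mutants exceeded controls on the log2 scale by 0.79 at E11.5 (SE 0.21, adjusted p = 0.20), by 1.19 at E12.5 (SE 0.43, adjusted p = 0.137) and by 0.99 over both stages (SE 0.29, 95% interval 0.36 to 1.62, adjusted p = 0.0582), none of them a call. DESeq2 called Myl1 at E11.5 (0.79, adjusted p = 0.0171) and not at E12.5 or over both stages. Myl1 had the largest mutant difference of the 8 genes at both stages.

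The test of Myl1 over both stages lay near its threshold, with adjusted p from 0.0089 to 0.128 over all alternatives. Without E12.5 control replicate 3 the E12.5 value was 2.13 and was called (adjusted p = 3.75e-04), and the value over both stages was 1.36 and was called (adjusted p = 0.0089). Without E11.5 mutant replicate 1 the value over both stages was 1.10 (adjusted p = 0.0415), also a call. With sex as a covariate Myl1 was called at E12.5 (1.49, adjusted p = 0.0432) and over both stages (1.37, adjusted p = 0.0125). The 1 male among the E12.5 controls was replicate 3, so in that group sex and this library cannot be told apart. With the length offset it was called over both stages (0.97, adjusted p = 0.0379) and not at either stage alone. Between the stages the mutant difference of Myl1 was larger at E12.5 by 0.40 (SE 0.59, 95% interval -0.87 to 1.66, adjusted p = 0.956).

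Mylpf, the fast skeletal regulatory chain, had 23.5, 31.2 and 37.7 CPM in the E11.5 controls and 25.1, 39.8 and 40.1 CPM in the mutants. By E12.5 the controls were at 8.53, 9.69 and 18.1 CPM and the mutants at 9.65, 13.7 and 17.5 CPM. The genotypes overlapped at both stages, and mutants differed by 0.18 at E11.5 (log2 scale, SE 0.23, adjusted p = 0.893) and by 0.17 at E12.5 (SE 0.28, adjusted p = 0.770). Both skeletal chains were highest among the E12.5 controls in replicate 3, without which Mylpf differed by 0.58 (adjusted p = 0.166). Of 12 skeletal muscle marker genes with counts in these controls, replicate 3 was the highest for 4 and the lowest for 5.

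Of the smooth muscle and non-muscle chains, Myl9 had 922, 862 and 951 CPM in the E11.5 controls and 794, 849 and 1156 CPM in the mutants. The later controls had 647, 654 and 915 CPM, with 760, 808 and 948 CPM in the later mutants. The groups overlapped at both stages, and the log2 difference came to 0.03 at E11.5 (SE 0.17, adjusted p = 0.976) and to 0.18 at E12.5 (SE 0.13, adjusted p = 0.465). Without E12.5 control 3 the later value of Myl9 was 0.36 (adjusted p = 0.0582). Myl6 had 630, 531 and 782 CPM in the E11.5 controls and 504, 487 and 806 CPM in the mutants. For E12.5 hearts the Myl6 levels were 407, 389 and 458 CPM (controls) and 404, 452 and 476 CPM (mutants). Its groups also overlapped at both stages, and it differed by -0.11 on the log2 scale at E11.5 (SE 0.23, adjusted p = 0.938) and by 0.09 at E12.5 (SE 0.09, adjusted p = 0.607).

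The difference of the mutant effects between stages was called for 0 of 12270 genes (0%), the light chains included. At an unadjusted p under 0.05 it passed for 551 genes and 0 of the 8 light chains, and DESeq2 called 42 genes. The plot of fold changes shows the width of the intervals: that of Myl1 at E12.5 runs from 0.25 to 2.13, and those of Myl2, Myl3 and Myl6 at E12.5 stay within 0.35 of 0 on the log2 scale.

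**Figure D2:**
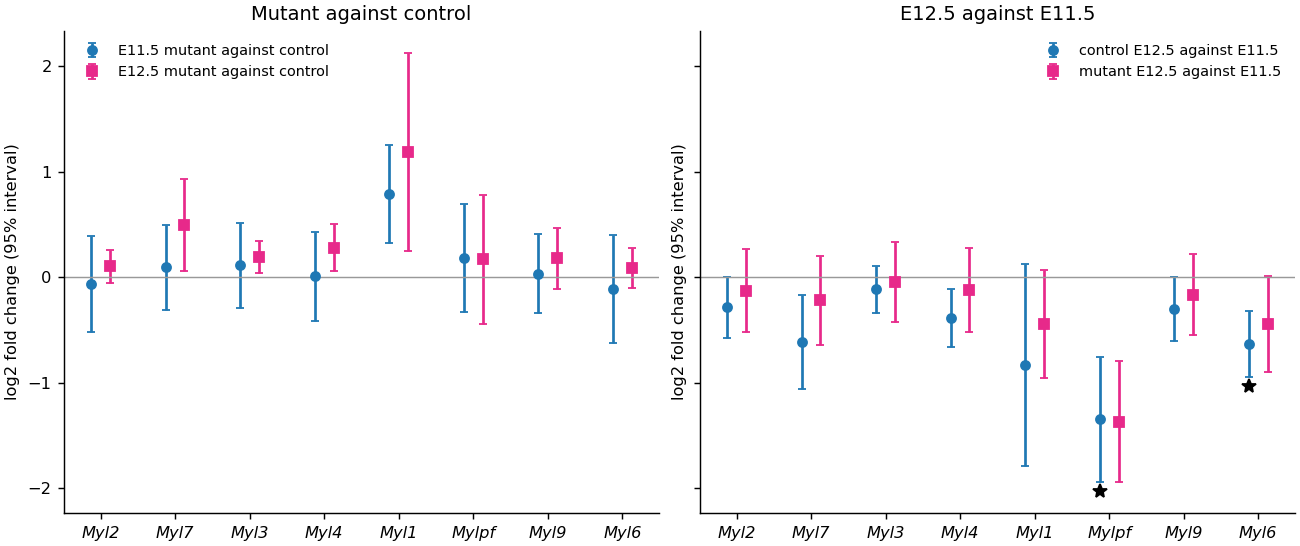
log2 fold change of each light chain with its 95% interval (edgeR, 3 against 3 libraries), left for mutant against control at each stage and right for E12.5 against E11.5 in each genotype. A star under the interval marks the 2 calls, Myl6 (-0.63) and Mylpf (-1.35) in controls.

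From E11.5 to E12.5 in controls, Mylpf fell 2.54-fold and Myl6 fell 1.55-fold, and these 2 of 8 light chains were called, both lower, where 5.28% of all 12252 genes were called. Mylpf differed by -1.35 on the log2 scale (SE 0.27, adjusted p = 0.0216), from 23.5 to 37.7 CPM at E11.5 to 8.53 to 18.1 CPM at E12.5. Myl6 differed by -0.63 (SE 0.14, adjusted p = 0.0279), from 531 to 782 CPM to 389 to 458 CPM. All 8 light chains had a negative value, with a median of -0.50 beside 0.01 for all genes, and for 5 of them (Myl2, Myl4, Myl6, Myl7 and Mylpf) the stages did not overlap (37.4% of all genes). Of those not called, Myl7 had -0.61 (SE 0.20, adjusted p = 0.0701, but a call by DESeq2 at 0.0114 and with no filter on low counts at 0.0338), Myl4 -0.38 (SE 0.12, adjusted p = 0.0674), Myl2 -0.28 (SE 0.13, adjusted p = 0.154), Myl9 -0.30 (SE 0.14, adjusted p = 0.153), Myl3 -0.11 (SE 0.10, adjusted p = 0.459) and Myl1 -0.83 (SE 0.43, adjusted p = 0.208).

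The short-gene signal was also lower at E12.5 in these control libraries, at -0.49 to -0.15 beside -0.01 to 0.53. With the length offset Myl6 had -0.22 (adjusted p = 0.125) and lost its call, while Mylpf had -1.01 (adjusted p = 0.0443) and kept it. Myl2 and Myl3 turned positive with this offset (0.13 and 0.19). The call of Myl6 was also lost without E11.5 control 1 or 3 or E12.5 control 1 or 2, and in 1 fit of all 12 libraries (adjusted p = 0.0645), and that of Mylpf without E11.5 control 3 or E12.5 control 1 or 2. With sex as a covariate, where 3 of 3 hearts at E11.5 and 1 of 3 at E12.5 were male, Myl6 had -0.50 (adjusted p = 0.517) and Mylpf -0.77 (adjusted p = 0.435). Without E12.5 control 3, Myl1 (-1.78) and Myl7 (-0.95) were called as well, and 4 light chains in all.

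**Figure D3:**
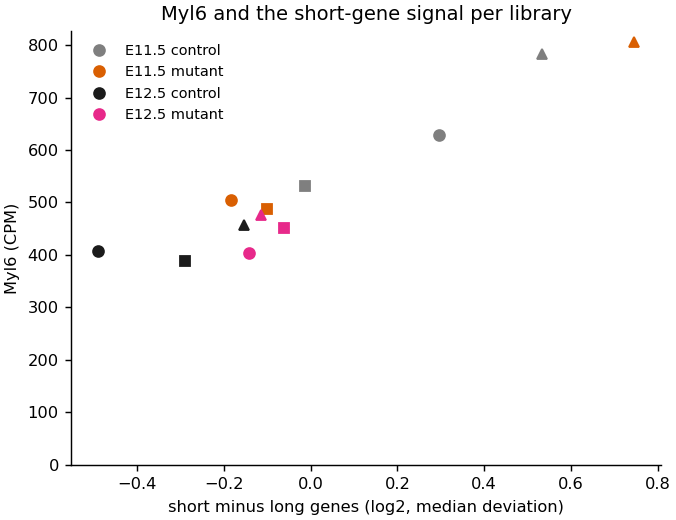
Myl6 in CPM (linear axis from 0) against the short-gene signal of each library, the median log2 deviation of genes under 1200 bases minus that of genes over 5000 bases. The 2 libraries with the highest short-gene signal, 0.53 and 0.75, have the highest Myl6, 782 and 806 CPM.

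In mutants none of the 8 light chains was called between the stages, where 0.556% of all 12238 genes were called. At an unadjusted p under 0.05, 1 light chain passed, beside 1134 of all 12238 genes, and DESeq2 called 1, beside 227 genes. That chain was Mylpf, with 25.1 to 40.1 CPM at E11.5 and 9.65 to 17.5 CPM at E12.5. These ranges did not overlap, and the stages differed by -1.37 on the log2 scale (SE 0.25, adjusted p = 0.0641), beside -1.35 in controls. Mylpf and Myl6 were the 2 of 8 whose stages were apart in mutants (17.4% of all genes). Myl6 had -0.44 (SE 0.20, adjusted p = 0.544), Myl1 -0.45 (SE 0.22, adjusted p = 0.604) and Myl7 -0.22 (SE 0.19, adjusted p = 0.755).

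Ratios between light chains of 1 library compare genes of like length. Each of 4 ratios of RPKM was tested for genotype and stage by an exact two-sided permutation of the log2 ratio over libraries, 24 tests in all. No ratio passed after Benjamini-Hochberg adjustment over the 24, the lowest adjusted p being 0.120. Within 1 stage or genotype, 3 libraries against 3 cannot reach an exact p below 0.1.

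The atrial to ventricular ratio of the regulatory chains, Myl7 to Myl2, was 0.476, 0.559 and 0.411 in the E11.5 controls and 0.503, 0.556 and 0.524 in the mutants. The E12.5 ratios were 0.273, 0.311 and 0.562 for controls, against 0.467, 0.430 and 0.594 for mutants. Control replicate 3 at E12.5 had the second highest ratio of the 12 libraries, and controls 1 and 2 had the lowest. The log2 ratio was higher by 0.29 in mutants within stages (exact permutation p = 0.165), and by 0.45 without that library (adjusted p = 0.16 over the 24 exact tests). For the essential chains, Myl4 to Myl3, the group means ran from 1.15 ± 0.18 to 1.38 ± 0.09 (SD, n = 3), and the log2 ratio differed by -0.01 between genotypes (exact permutation p = 0.925) and by -0.18 between stages (exact permutation p = 0.070).

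The ratio of Myl1 to Myl3, a fast skeletal to a ventricular essential chain, was 7.63% ± 1.52 in the E11.5 controls and 12.1% ± 2.68 in the mutants (SD, n = 3). The E12.5 percentages were 2.10, 2.56 and 9.31 for controls, against 7.86, 7.81 and 11.9 for mutants. It was higher in mutants by 0.98 on the log2 scale within stages (exact permutation p = 0.025, adjusted p = 0.30 over the 24 tests), and by 1.31 without E12.5 control 3 (adjusted p = 0.06 over the 24 exact tests). The ratio of Mylpf to Myl2 was 0.630% ± 0.123 in the E11.5 controls, 0.754% ± 0.187 in the E11.5 mutants, 0.305% ± 0.147 in the E12.5 controls and 0.314% ± 0.0941 in the E12.5 mutants (SD, n = 3). The ratio at E12.5 was 0.434 of that at E11.5 within genotypes, at an exact permutation p of 0.005, the smallest that 400 arrangements allow, and an adjusted p of 0.120. No E12.5 library of either genotype had a Mylpf to Myl2 ratio as high as any E11.5 library of the same genotype.

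**Figure D4:**
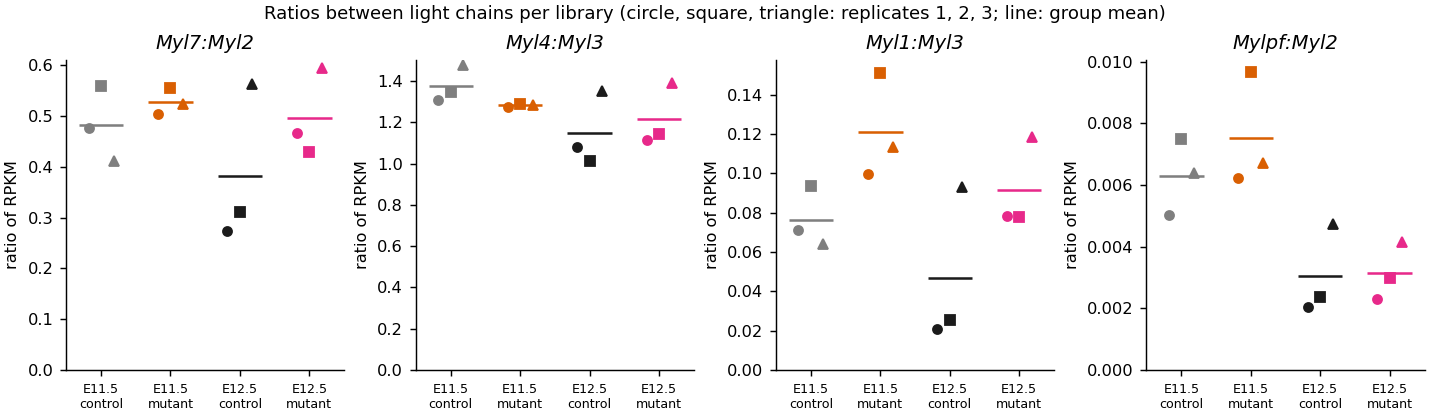
Ratio of RPKM between 2 light chains in each library (linear axes from 0), 1 point per library and a line at the group mean of 3. In Myl7 to Myl2 and Myl1 to Myl3, E12.5 control replicate 3 (0.562 and 0.0931) lies far above the other 2 controls of that stage.

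The light chains differed in how far they varied together across the 12 libraries, with r between 2 members from 0.24 (Myl1 and Myl2) to 0.95 (Myl4 and Myl9). For the genes most like each member, Pearson's r of log2(CPM + 0.5) is given as a description, over 12 libraries that share depth and the short-gene signal. Among 8750 other genes with a mean of at least 5 RPKM, the 3 most like Myl7 were Myl9 (r = 0.94), Gstm2 (0.93) and Myl1 (0.92). Those most like Myl9 were Myl4 (0.95), Myl7 (0.94) and Taldo1 (0.92), so 2 of 3 for each of these chains were other members. Those most like Myl1 were Paox (0.94), Myl7 (0.92) and Cnn1, a smooth muscle calponin (0.92). By rank (Spearman) their correlations with Myl1 were 0.73, 0.60 and 0.83. After the group means were removed, r of Myl1 with Myl7 was 0.92, of Myl7 with Myl9 0.95 and of Myl4 with Myl9 0.94, while that of Myl1 with Myl2 was -0.08 and with Myl3 0.06.

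The 3 genes nearest to each of the other 5 members were no light chains. Myl2 was nearest to Smim20, Srp14 and Atp5k (r = 0.95 to 0.96), Myl4 to Tmem256, Pdcd5 and Rpp21 (all 0.98), Myl6 to Dbi, Sod1 and Snrnp27 (all 0.98) and Myl3 to Pebp1, Cox4i1 and Cdc42ep2 (all 0.93). Mylpf was nearest to 2610318N02Rik (0.94), Ahcy and Sri (both 0.93). The plots of Myl1 against other genes show the same libraries at the ends: E12.5 controls 1 and 2 were lowest for Myl1, Myl7 and Tnnt3, a fast skeletal troponin T.

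**Figure D5:**
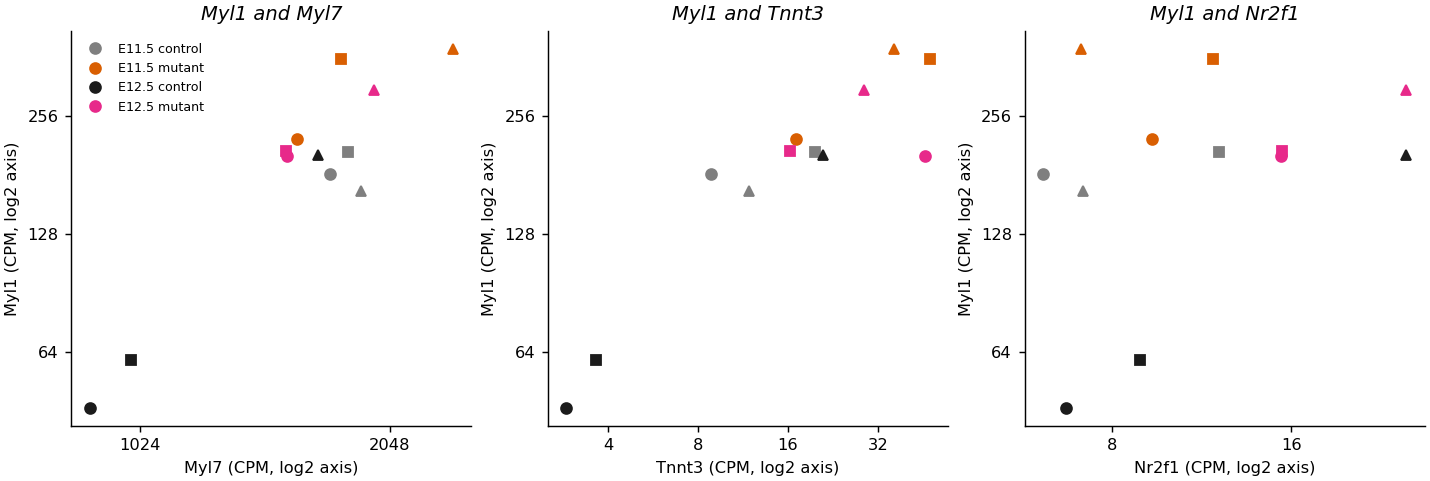
Myl1 in CPM against Myl7, Tnnt3 and Nr2f1 in CPM, log2 axes, 1 point per library, with circle, square and triangle for replicates 1, 2 and 3. E12.5 control 3 (203 CPM of Myl1, 1680 of Myl7, 21.0 of Tnnt3, 24.9 of Nr2f1) lies with the mutants of its stage and away from controls 1 and 2.

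The genes that act on light chains, with the light chains outside the 8, made a list of 16, of which 13 were tested. At E11.5 none of them was called, at E12.5 1 was called higher and 1 more passed the adjusted p as lower, and over both stages 1 was called higher and 1 more passed as higher. The median log2 fold change of those tested was -0.06 at E11.5 and -0.09 at E12.5, beside 0.00 for all genes. The called gene was Myl6b, an essential chain of slow muscle and non-muscle cells. Myl6b had 4.43, 4.61 and 4.27 CPM in the E11.5 controls and 8.42, 7.43 and 13.4 CPM in the mutants, followed by 2.89, 4.87 and 3.69 CPM (E12.5 controls) and 8.03, 8.75 and 8.17 CPM (E12.5 mutants). All mutants were above all controls at both stages, E12.5 control 3 included. Myl6b rose 2.16-fold in mutants at E12.5 (log2 1.11, SE 0.21, adjusted p = 0.0144, and up to 0.0541 over the alternatives) and 2.18-fold over both stages (log2 1.12, SE 0.16, adjusted p = 0.0014), and had 1.13 (SE 0.26, adjusted p = 0.160) at E11.5.

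The group means of Myl6b were 3.72 to 9.49 RPKM, below those of the 8 members, of which the lowest was 16.0 RPKM (Mylpf in the E12.5 controls). Myl6b lies at chromosome 10, 128494157 to 128498685 (reverse strand, GRCm38). That is upstream of Myl6 (128490860 to 128493875) on the same strand, with 281 bases between them. The longest run of identical bases between their transcripts is 46. Reads on that stretch could be split between them. Leaving out 1 library at a time, Myl6b was called in 12 of 12 fits over both stages and in 5 of 6 at E12.5.

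Mylk3, the cardiac light chain kinase, had 249, 210 and 216 CPM in E12.5 controls, against 164, 175 and 158 CPM in mutants. It fell by 0.44 on the log2 scale (SE 0.08, adjusted p = 0.0155), less than the 1.5-fold set for a call, with all mutants below all controls and adjusted p of up to 0.465 over the alternatives. At E11.5 Mylk3 had -0.21 (SE 0.27, adjusted p = 0.892), and over both stages -0.33 (adjusted p = 0.262). Dapk3, a kinase of regulatory light chains in smooth muscle and non-muscle cells, rose by 0.42 over both stages (SE 0.10, adjusted p = 0.0246). Myl12a and Myl12b, the non-muscle regulatory chains, differed by -0.06 and -0.11 at E11.5 and 0.03 and 0.05 at E12.5 (adjusted p of 0.772 to 0.955). Their transcripts share a run of 529 identical bases, so their separate values are uncertain. Between any 2 of the 8 members the longest shared run was 29 bases, between Myl3 and Myl4.

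Markers of the cells that these chains are named for were read in the same libraries. Of 14 skeletal muscle genes, 4 were tested at E11.5 and 6 at E12.5, and none was called between genotypes (1 and 3 at an unadjusted p under 0.05). At E12.5, 3 of 13 with counts had every mutant above every control and 1 had every mutant below. At E11.5 the counts were 0 and 2. Over all genes tested, the groups did not overlap for 26.2% at E12.5 and 16.3% at E11.5. The 1 below at E12.5 was Ckm, the muscle creatine kinase (39.9 to 61.3 CPM in mutants and 63.3 to 68.4 in controls). The 2 below at E11.5 were Chrng (0.604 to 0.971 CPM in mutants and 1.04 to 1.399 in controls) and Myh8 (0.0647 to 0.181 and 0.195 to 0.512 CPM). Myh8 had at most 8 reads in an E11.5 library. The 3 above at E12.5 were the determination factors Myod1 (0.270 to 0.998 CPM in mutants and 0 to 0.224 in controls) and Myog (0.809 to 2.29 and 0.554 to 0.672 CPM) and Myh3, embryonic heavy chain (0.944 to 10.3 and 0.123 to 0.672 CPM). Control 2 and mutant 1 had the same counts of Myod1 (4 reads each) and Myog (12 reads each), and 12 and 14 reads of Myh3. The separation of Myod1 and Myog thus rests on library scaling at few reads. These 3 genes and the factors Myf5 (at most 0.198 CPM) and Myf6 (at most 0.135 CPM) were named as defining markers. The median log2 fold change was -0.47 over the 4 genes tested at E11.5 and 0.45 over the 6 tested at E12.5. These sets differ, so the medians cannot be compared. At E12.5 Myog passed the filter on level through the mutants (0.995 RPKM, controls 0.424). Chrng passed it through the controls (0.663 RPKM, mutants 0.428). The highest Myod1, Myog and Myh3 were in E12.5 mutant 2, whose Myl1 (209 CPM) and Mylpf (13.7 CPM) were not the highest of its group. The part of skeletal muscle cells in the Myl1 values was not tested. The summed RPKM of the list was 23.4 to 33.3 in the E11.5 controls, 25.2 to 57.2 in the mutants, 50.9 to 72.7 in the E12.5 controls and 52.0 to 89.3 in the mutants. Its most abundant genes were Ckm, Tnnt3 and Actn3. Ckm, the muscle creatine kinase, rose with stage in controls by 1.87 on the log2 scale (adjusted p = 9.25e-04), opposite in sign to Myl1 and Mylpf, and Tnnt3 had 1.72 (adjusted p = 0.124) in mutants at E12.5 and 1.52 (adjusted p = 0.0523) over both stages.

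Of 6 atrial genes all were tested and none was called between genotypes (1 and 2 at an unadjusted p under 0.05 at E11.5 and E12.5). Their summed levels were 1206 to 1747 RPKM in the E11.5 controls and 1182 to 1980 RPKM in the mutants. At E12.5 they were 1248 to 1453 RPKM in controls and 1438 to 1973 RPKM in mutants. Most of each sum was Nppa, with E12.5 group means of 1344 and 1610 RPKM. At E11.5, 1 of the 6 had every mutant below every control and 0 had every mutant above (16.3% of all genes did not overlap). This was Sln, with 0.518 to 0.845 CPM in mutants and 1.95 to 2.30 CPM in controls. At E12.5 both counts were 0. E12.5 control 3 was the highest of the 3 controls for 4 of these 6 genes. How often this library was the highest or the lowest control over all genes was not counted. Among the most abundant, Sln, atrial sarcolipin, had 8.19 CPM there beside 1.44 and 2.13, and Nr2f2, an atrial nuclear receptor, had 48.2 beside 25.6 and 27.8. Nppa, the atrial natriuretic peptide, had 1133 CPM there beside 1191 and 1020. Nr2f1, also an atrial nuclear receptor, was chosen after its values were seen and had 24.9 CPM beside 6.69 and 8.90.

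The same library was the lowest of the 3 controls for 5 of 6 ventricular genes, among them Myh7, the slow heavy chain, with 5263 CPM beside 7383 and 6691, Hey2, a ventricular repressor, with 134 beside 162 and 142, and Mpped2, with 85.0 beside 99.6 and 93.1. None of the ventricular genes was called between genotypes (0 and 1 at an unadjusted p under 0.05). Myl2 was lowest among these controls in the same library (3206 CPM), and Myl7 highest (1680 CPM). The part of the share of atrial and ventricular tissue in the Myl7 and Myl1 values was not tested.

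Of 7 smooth muscle genes, 6 were tested at E11.5 and 5 at E12.5, and none was called between genotypes (0 and 3 at an unadjusted p under 0.05). Over both stages Acta2 and Cnn1 passed the adjusted p as higher, below 1.5-fold, and 0 passed as lower. The median log2 fold change of those tested over both stages was 0.03, beside 0.00 for all genes. At E11.5, 2 of 7 had every mutant above every control and 0 below (16.3% of all genes did not overlap). At E12.5 the counts were 1 and 1 (26.2% of all genes). The 1 below was Smtn, with means of 107 CPM in mutants and 124 CPM in controls. E12.5 control 3 was the highest control of its stage for all 7, as it was for Myl9. In controls Tagln, transgelin, fell by 1.18 between stages (SE 0.14, adjusted p = 0.0034), beside -0.30 for Myl9. Of 9 erythroid genes 6 were tested, and 5 were called lower in E12.5 mutants, where 2.95% of all genes were called. At E11.5 0 were called. The 5 were the globins Hba-a1 (-0.73), Hba-x (-1.35), Hbb-y (-0.93) and Hbb-bh1 (-1.61) and the red cell anion exchanger Slc4a1 (-1.64), with adjusted p of 0.0023 to 0.014. The summed level of the list was 6000.5 to 9712.5 RPKM in the E12.5 controls, highest in control 3, and 3320.5 to 4192 RPKM in the mutants. At E11.5 the sums overlapped, with 6738 to 8478 RPKM in controls and 6979 to 8570 RPKM in mutants. E12.5 control 3 was also the highest of the 3 controls of its stage for each of the 6 erythroid genes with counts. The 8 light chains together took 0.929 to 1.54% of all counts in a library. The part of the lower share of red cell RNA at E12.5 in their E12.5 mutant values was not tested.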

How the data were processed

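RNA-seq of 12 libraries of CD1 heart was used, grouped by the labels into 4 groups of 3. Per the labels and methods, total RNA was sequenced, aligned with Bowtie2 to mm10 and normalised with DESeq by the authors. The counting program, its annotation and its use of strand are not given in the sources used here. The deposited per-library values are named RPKM but behave as a signal, a whole read count multiplied by gene length and by a library factor. The deposited comparison tables hold estimated counts averaged over 3 libraries by the authors. From both, whole counts of 19424 genes were recovered, with the largest distance from a whole number 3.78e-10, and 944 genes absent from the comparison tables were left out. Replicates of a group differed by more than counting noise (chi-square per gene 6.71 to 49.6), so none was counted as a repeat of another. The tables' own fold changes and p-values were not used.

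Recovered counts were divided by library totals multiplied by TMM factors (CPM) and by gene length (RPKM, whose scale is thus recomputed). Whether groups overlap was read from these scaled values. Genes with a mean of at least 0.5 RPKM over the libraries compared entered edgeR's quasi-likelihood test (version 4.0.16, R 4.3.3, TMM) with Benjamini-Hochberg adjustment, fitted on the 6 libraries compared or, for both stages and their difference, on all 12. Every adjusted p without another tool's name is from this test. Alternatives were DESeq2 1.42.0, limma 3.58.1 on log2(RPKM + 0.5), RLE scaling, other filters, a replicate block, sex, 1 fit of 12 libraries, each library left out and, chosen after seeing the data, an offset smooth in gene length. Simulated data for mutant against control at E12.5 (12257 genes) had the same small spread for every gene and no library set apart. Genes of low count were not changed. There the test called 46% of 50 genes changed 1.5-fold and 100% of 50 changed 2-fold. In the real E12.5 controls the SD was 83.8% of the mean for Myl1 and 36.1% for Myl7, so these shares do not hold for them. Python 3.11.15 was used for the ratios. The 8 members and all lists were chosen with earlier results of these data known. The text names the 8 members, Myl12a, Myl12b, Myl6b and Mylk3. It names other light chains and their kinases and phosphatases that passed a genotype test, and the 3 genes most like each member. Of each marker list it names the 3 most abundant and those called between genotypes. Defining skeletal markers, Chrng, Myh8, Nr2f1 and Smtn were added after their values were seen. Totals of 11994148 to 17483982 counts limit precision by counting error far less than the spread between libraries does.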

Additional observations from a re-analysis of the deposited data

How the results depend on the processing

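Of 848 alternative values of the light chains' log2 fold changes, 758 kept direction and side of the threshold, 11 lost a call or pass, 23 gained one and 56 changed sign, none of these with an adjusted p of 0.05 or less in either fit. The cause of the changes was not tested.

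Genes called at E11.5 (14 in the main test) were 73 with no filter, 6 at a mean of at least 5 RPKM, 248 with DESeq2, 27 with limma, 29 with sex, 221 in 1 fit of all 12 libraries and 64 with the length offset. At E12.5 (362) they were 157 at 5 RPKM, 132 in 1 fit and 613 with no fold threshold. Between stages in controls (647) they were 363 at 5 RPKM, 19 with sex, 336 in 1 fit, 307 with the length offset and 1402 with no fold threshold. Between stages in mutants (68) they were 119 with no filter, 29 at 5 RPKM, 227 with DESeq2 and 119 in 1 fit. Over both stages (395) they were 120 at 5 RPKM and 840 with no fold threshold, and for the difference between stages 42 with DESeq2.

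Light chains called were 1 at E11.5 with DESeq2 and 1 at E12.5 with sex, both Myl1. In controls between stages (2) they were 3 with DESeq2 and 3 with no filter (Myl7 added), 0 with sex, 1 in 1 fit and 1 with the length offset, and in mutants 1 with no filter, DESeq2 and 1 fit each. Over both stages they were 1 with no filter, limma, sex and the length offset each, always Myl1.

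The labels do not say whether the replicate numbers pair the libraries. Same-numbered deviations correlated at r of -0.12 to 0.43. Differently numbered libraries were not compared, so these values cannot decide it. With the replicate numbers as a block, 73 genes were called at E11.5 and 36 between stages in mutants. Light chains called were then 1 at E12.5 (Myl1, 1.47, adjusted p = 0.0036 by edgeR), 4 and 1 between stages in controls and mutants, and 1 over both stages. With the block the value of Myl4 at E11.5 was -0.0107 and the difference of Mylpf between stages 0.0058.

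Other changes of sign followed, none of them with a call. At E11.5 Myl4 had -0.0022 with no filter and -0.0107 with limma, and with sex Myl2 had 0.29 and Myl6 0.32. With sex, Myl1 had 0.14 and Myl9 0.0057 between stages in controls, Myl6 0.071 over both stages and Myl3 a difference of -0.017. With the length offset Myl2 had 0.052 at E11.5 and -0.033 at E12.5, and Myl6 -0.045 at E12.5. Between stages with that offset, Myl2 had 0.13 and Myl3 0.19 in controls, and Myl2 0.043, Myl3 0.11 and Myl4 0.029 in mutants. The differences between stages were then -0.079 for Myl2, -0.085 for Myl3 and -0.035 for Myl6, and with limma 0.028 for Mylpf.

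With 1 library left out, genes called ran from 0 to 15 at E11.5, 151 to 368 at E12.5, 44 to 1407 and 1 to 123 between stages in controls and mutants, and 0 to 10 for the difference. E12.5 control 1 gave the lowest count in controls and at E12.5, and E11.5 control 2 the highest in controls. Light chains called ran from 0 to 2 at E12.5, 0 to 4 and 0 to 1 between stages in controls and mutants, and 0 to 1 over both stages. At E11.5 the log2 fold change ran from -0.28 to 0.085 for Myl2, -0.095 to 0.23 for Myl3, -0.20 to 0.12 for Myl4, -0.39 to 0.043 for Myl6, -0.11 to 0.22 for Myl7 and -0.16 to 0.14 for Myl9. Between stages in mutants it ran from -0.23 to 0.092 for Myl2, -0.15 to 0.17 for Myl3, -0.23 to 0.092 for Myl4 and -0.27 to 0.030 for Myl9. Over both stages it ran from -0.066 to 0.091 for Myl2 and -0.13 to 0.063 for Myl6, at E12.5 from -0.051 to 0.58 for Mylpf, and for the difference from -0.038 to 0.30 for Myl3 and -0.24 to 0.39 for Mylpf. The log2 ratio of Myl4 to Myl3 differed by -0.057 to 0.055 between genotypes and -0.011 to 0.21 at E12.5, and that of Mylpf to Myl2 by -0.13 to 0.47 at E12.5. Without E11.5 mutant 1, Mylpf was called between stages in mutants (-1.56, adjusted p = 0.0394 by edgeR).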
